A study of Rattus norvegicus with 4 samples.

Results

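The genes of prostaglandin synthesis and reception were followed in tendon stem/progenitor cells (TSPCs) of the rat, the progenitor population within tendon, with and without an inhibitor of the ERK pathway. They are 10 genes, taken by symbol from the deposited table of 32623 genes: the cyclooxygenases Ptgs1 and Ptgs2, the terminal synthases Ptges and Ptgis, and the receptors Ptger1, Ptger2, Ptger3, Ptger4, Ptgir and Ptgfr. Each symbol had 1 row, and none of the 10 positions overlapped another gene of the table. RNA sequencing covered 2 control libraries from TSPCs given DMSO, the solvent, and 2 libraries from TSPCs given U0126, which blocks the MEK kinases that activate ERK. The sources used here do not give the dose, the exposure time, or the strain and age of the animals. The libraries are labelled as biological replicates 1 and 2 of each group, but no animal or culture is named, so p-values measure the spread between these libraries only, which may be technical. All means below are over 2 libraries, with SD.

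Total counts lay between 36888913 and 42785190 per library. The median absolute log2 difference was 0.18 between the U0126 libraries and 0.11 between the controls, over 12376 genes with a mean of at least 1 CPM (counts normalised for sequencing depth, here with TMM scaling). Of 11 ERK pathway output genes, 8 were called lower with U0126, 0 higher and 3 neither, by the edgeR test described below. Over all 14023 tested genes, 11.5% were called lower and 8.41% higher. The 8 included the ERK phosphatase genes Dusp5 (log2 fold change -2.33 ± 0.17 SE) and Dusp6 (-0.91 ± 0.13). The ETS factor genes Etv1 (-2.35 ± 0.23) and Etv4 (-1.99 ± 0.22) were also among them. Among tendon markers, Col1a1 was at 22420 ± 1905 CPM in the controls and Scx at 12.0 ± 0.262, while the mature tendon marker Tnmd had no more than 0.0827 ± 0.0456 CPM in either group. In these bulk libraries, fewer cells of a type and less RNA per cell cannot be told apart.

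Prostaglandins are lipid mediators made from arachidonic acid, which phospholipases free from membranes. A cyclooxygenase turns it into an unstable intermediate, prostaglandin H, and a terminal synthase then makes prostaglandin E, prostacyclin or another prostanoid, each read by its own receptors at the cell surface. In tendon, prostaglandin E is known as a mediator of inflammation and of the response to loading, and cyclooxygenase inhibitors are used against tendon pain.

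With U0126, both cyclooxygenase transcripts fell and 2 of the 4 prostaglandin E receptor transcripts rose, while the terminal synthases and the prostacyclin and prostaglandin F receptors did not pass the test. Of 9 members tested, 2 were called higher and 2 lower by edgeR's quasi-likelihood test (Benjamini-Hochberg adjusted p under 0.05 over all 14023 tested genes), and 5 were not called. Over all tested genes 8.41% were called higher, 11.5% lower and 19.9% in either direction. The median log2 fold change of the 9 was -0.11, against 0.02 over all tested genes. On simulated counts the same test made more calls of unchanged genes than its threshold states, a limit on every call given here. The remaining member, Ptger2, had 0 counts in every library and was not tested.

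**Figure D1:**
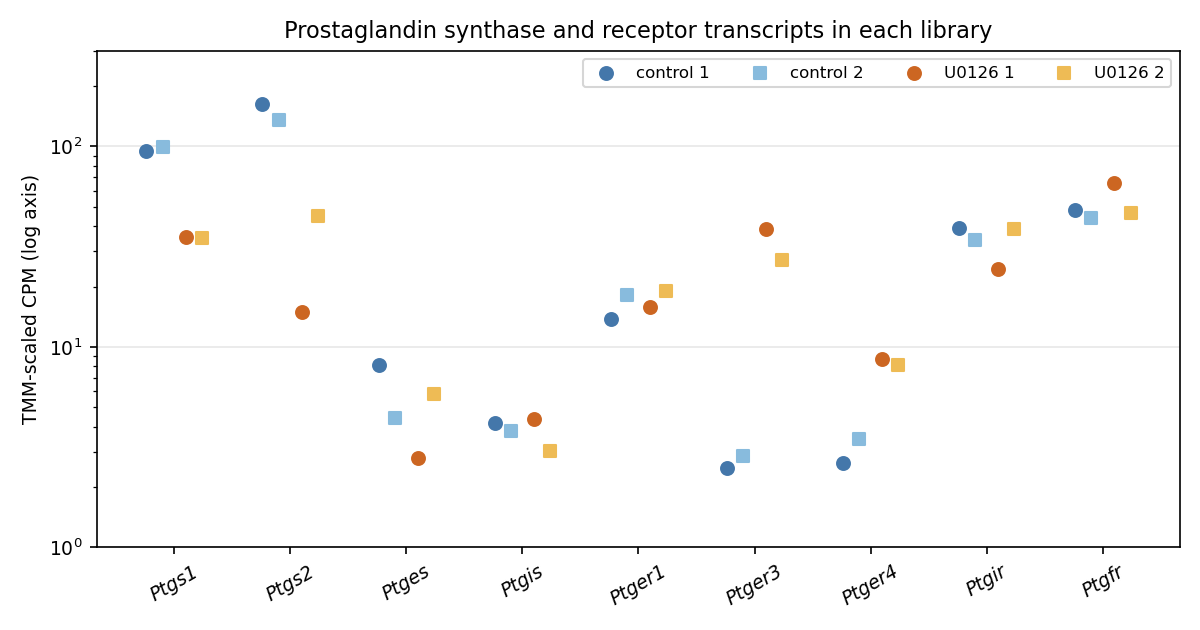
Level of each detected member in each library, in TMM-scaled CPM on a log axis; blue symbols are the controls and orange ones the U0126 libraries, circles for replicate 1 and squares for replicate 2. For Ptgs1 and Ptgs2 both U0126 libraries sit below both controls, for Ptger3 and Ptger4 both sit above, and for the other 5 genes the groups overlap. Separation of 2 libraries from 2 is a description only, and its share over all tested genes was not computed. It also occurred among other pathway genes that were not called. Ptger2, at 0 in every library, is not drawn.

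Ptgs2 encodes cyclooxygenase 2, the form induced by growth factors and inflammatory signals (rn6 chromosome 13, 67351087 to 67359335, plus strand). Its level was 162 and 136 CPM in the controls, and 14.9 and 44.8 CPM in the U0126 libraries. Both U0126 libraries were thus below both controls, but they stood apart from each other by 3.001-fold, a gap reached by 0.566% of the 12376 genes above 1 CPM. The log2 fold change was -2.32 ± 0.44 SE (edgeR adjusted p = 0.0111). Its size turned on the U0126 library used, at -1.73 without U0126 replicate 1 and -3.33 without U0126 replicate 2. The call was lost without control replicate 1 (log2 fold change -2.19, adjusted p = 0.0568, in a range from 7.26e-07 over the alternatives).

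Ptgs1 encodes cyclooxygenase 1, usually described as the constitutive form (chromosome 3, 15560712 to 15582344, plus strand). Its level was 95.4 and 99.5 CPM in the controls and 35.3 and 34.9 CPM with U0126, so the libraries of each group lay close together and the groups far apart. It fell by 1.47 ± 0.09 SE on the log2 scale, 2.78-fold (edgeR adjusted p = 0.000169). This call held in each of the 11 alternatives run, with log2 fold changes from -1.53 to -1.44.

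Levels of different genes can be compared only per length, and the deposited TPM (a level normalised for gene length and sequencing depth) serves for this. In the controls the 2 cyclooxygenases were the most abundant members, with overlapping levels of 60.1 and 65.0 TPM for Ptgs1 and 65.4 and 56.8 TPM for Ptgs2. With U0126 they were at 21.6 TPM in both libraries for Ptgs1, and at 5.83 and 17.7 TPM for Ptgs2. Summed cyclooxygenase TPM went from 124 ± 2.56 to 33.4 ± 8.42. The ratio of Ptgs2 to Ptgs1 was 1.09 and 0.873 in the controls, 0.270 in U0126 replicate 1 and 0.823 in U0126 replicate 2. The second U0126 library was therefore near the controls in this ratio, and the first was not. An exact two-sided permutation test of the log2 ratio gave p = 0.3333, the smallest that 2 libraries against 2 allow, so this test cannot pass a threshold of 0.05 at this size.

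The promoter windows of both cyclooxygenase genes are shown because both transcripts fell. They are the 250 bases before the gene start in RefSeq's GRCr8 annotation, another build than that of the deposited positions, on the gene's strand: chr3:39981169-39981418 (plus) for Ptgs1 and chr13:64713813-64714062 (plus) for Ptgs2. Capitals mark matches to any of 8 motifs, and positions are counted back from the gene start.
Ptgs1: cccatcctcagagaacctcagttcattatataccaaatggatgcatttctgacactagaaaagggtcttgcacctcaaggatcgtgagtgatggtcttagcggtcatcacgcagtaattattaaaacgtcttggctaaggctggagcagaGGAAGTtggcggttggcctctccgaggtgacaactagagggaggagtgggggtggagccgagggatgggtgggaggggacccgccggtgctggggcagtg
Ptgs2: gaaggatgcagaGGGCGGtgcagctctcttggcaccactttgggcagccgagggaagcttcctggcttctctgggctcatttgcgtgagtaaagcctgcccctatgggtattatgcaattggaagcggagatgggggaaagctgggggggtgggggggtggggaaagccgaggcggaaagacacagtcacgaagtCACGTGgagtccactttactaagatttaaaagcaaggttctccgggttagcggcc

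The motifs, searched on both strands, were TATAAA (the TATA box), TGACGTCA (the full cAMP response element) and its shorter form TGACG, which the full element contains, TGANTCA (AP-1), GGGCGG (GC box), CACGTG (E box), GGAAGT (an ETS site) and GCGNGGGCG (Egr). The Ptgs2 window held a GC box at 238 to 233 and an E box at 55 to 50. The Ptgs1 window held GGAAGT at 100 to 95. Among 33365 distinct windows of the same length, GGGCGG was found in 30.5%, CACGTG in 5.6%, GGAAGT in 19.2%, TATAAA in 12.9%, TGACG in 18.2%, TGACGTCA in 1.59%, TGANTCA in 6.35% and GCGNGGGCG in 4.3%. A match describes letters only and is not a bound site.

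The terminal synthases were low and did not pass the test. Ptges encodes the inducible microsomal prostaglandin E synthase (chromosome 3, 9727408 to 9738752, minus strand). It was at 8.09 and 4.43 CPM in the controls and at 2.79 and 5.80 CPM with U0126, overlapping groups with a log2 fold change of -0.54 ± 0.40 SE (edgeR adjusted p = 0.387). Without U0126 replicate 2 it passed as lower (log2 fold change -1.17, adjusted p = 0.0301), and without control replicate 1 it was at -0.05, with adjusted p values from 0.0301 to 0.973 over all alternatives. Its 2 U0126 libraries differed 2.06-fold, with replicate 2 the higher one, as for Ptgs2. Ptgis encodes prostacyclin synthase, a cytochrome P450 family enzyme (chromosome 3, 163950777 to 163986059, minus strand). It was at 4.19 and 3.81 CPM in the controls and 4.35 and 3.04 CPM with U0126 (log2 fold change -0.11 ± 0.24 SE, adjusted p = 0.781). The ratio of Ptges to Ptgis in TPM was 2.48 and 1.502 in the controls and 0.828 and 2.47 with U0126, overlapping groups.

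The prostaglandin E receptors differ in the G protein they use: as background, the receptor encoded by Ptger1 signals through Gq and calcium, those of Ptger2 and Ptger4 through Gs to raise cAMP, and that of Ptger3 mainly through Gi to lower it. Ptger3 (chromosome 2, 263895241 to 263979698, plus strand) was at 2.50 and 2.85 CPM in the controls, from 99 and 124 counts, and at 38.6 and 27.2 CPM with U0126. Both U0126 libraries were far above both controls. It rose by a log2 fold change of 3.62 ± 0.21 SE (edgeR adjusted p = 0.000151), the 48th highest of the 14023 tested genes. The call held in all 11 alternatives, with log2 fold changes from 3.35 to 3.84 and adjusted p values up to 0.00274.

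Ptger4 (chromosome 2, 54952821 to 54963448, minus strand) was at 2.62 and 3.47 CPM in the controls and at 8.67 and 8.15 CPM with U0126. The groups did not overlap, and the U0126 libraries lay close together. The log2 fold change was 1.46 ± 0.20 SE, 2.76-fold (edgeR adjusted p = 0.00331). The call held in all 11 alternatives, with log2 fold changes from 1.27 to 1.68 and the weakest without control replicate 1 (adjusted p = 0.0422).

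Ptger1 (chromosome 19, 24800072 to 24803373, plus strand) was at 13.8 and 18.1 CPM in the controls and 15.7 and 19.1 CPM with U0126. The groups overlapped, with a log2 fold change of 0.12 ± 0.17 SE (edgeR adjusted p = 0.665), and the sign turned without control replicate 1 or U0126 replicate 2. Ptger2 (chromosome 15, 19338175 to 19350210, plus strand) had 0 counts in all 4 libraries. A count of 0 allows up to 3 counts, which is 0.0689 to 0.0829 CPM per library, so a level under that is not detectable at this depth.

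The promoter windows of the 2 receptor genes that rose are printed in the same form, again from RefSeq's GRCr8 annotation: chr2:249264832-249265081 (plus) for Ptger3 and chr2:56073523-56073772 (minus) for Ptger4.
Ptger3: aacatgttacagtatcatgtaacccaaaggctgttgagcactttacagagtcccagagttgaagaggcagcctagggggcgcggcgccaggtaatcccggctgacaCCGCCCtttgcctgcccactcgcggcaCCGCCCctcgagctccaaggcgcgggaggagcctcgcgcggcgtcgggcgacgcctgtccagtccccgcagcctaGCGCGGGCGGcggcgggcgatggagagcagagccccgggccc
Ptger4: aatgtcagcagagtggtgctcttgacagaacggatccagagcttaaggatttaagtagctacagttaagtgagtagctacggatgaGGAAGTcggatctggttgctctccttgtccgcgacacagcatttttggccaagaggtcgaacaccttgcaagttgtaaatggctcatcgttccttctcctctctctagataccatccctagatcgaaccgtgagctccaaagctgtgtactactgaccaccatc

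The Ptger3 window was rich in G and C (68.4%, against 48.4% for Ptger4 and a median of 51.6% over all windows). It held GC boxes at 144 to 139, 117 to 112 and 38 to 33, and an Egr match at 42 to 34 that overlaps the last of these. The Ptger4 window held GGAAGT at 164 to 159. This is the ETS letter string found in the Ptgs1 window too, although Ptger4 rose and Ptgs1 fell. Of the other members, Ptges had a GC box at 87 to 82 and an Egr match at 74 to 66, Ptger1 and Ptgir had a GC box each, and Ptger2 and Ptgfr had no match. A window was found for 9 of the 10 members, and Ptgis was not matched.

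The receptors for prostacyclin and prostaglandin F did not pass the test. Ptgir, the Gs-coupled prostacyclin receptor (chromosome 1, 78833157 to 78837623, plus strand), was at 39.4 and 34.3 CPM in the controls and at 24.5 and 38.7 CPM with U0126. The second U0126 library lay among the controls and the first below them, and the log2 fold change was -0.22 ± 0.21 SE (edgeR adjusted p = 0.497). It was -0.60 without U0126 replicate 2, where it passed as lower (adjusted p = 0.00481), and 0.07 without U0126 replicate 1. Its adjusted p reached 0.851 without control replicate 1. Ptgfr, the Gq-coupled prostaglandin F receptor (chromosome 2, 257005829 to 257038105, minus strand), was at 48.4 and 44.1 CPM in the controls and at 65.5 and 46.4 CPM with U0126. The groups overlapped, with a log2 fold change of 0.27 ± 0.16 SE (adjusted p = 0.287). Without U0126 replicate 2 it passed as higher (0.49, adjusted p = 0.00433), and without U0126 replicate 1 the difference was 0.01 (adjusted p = 0.974, the highest of its alternatives).

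**Figure D2:**
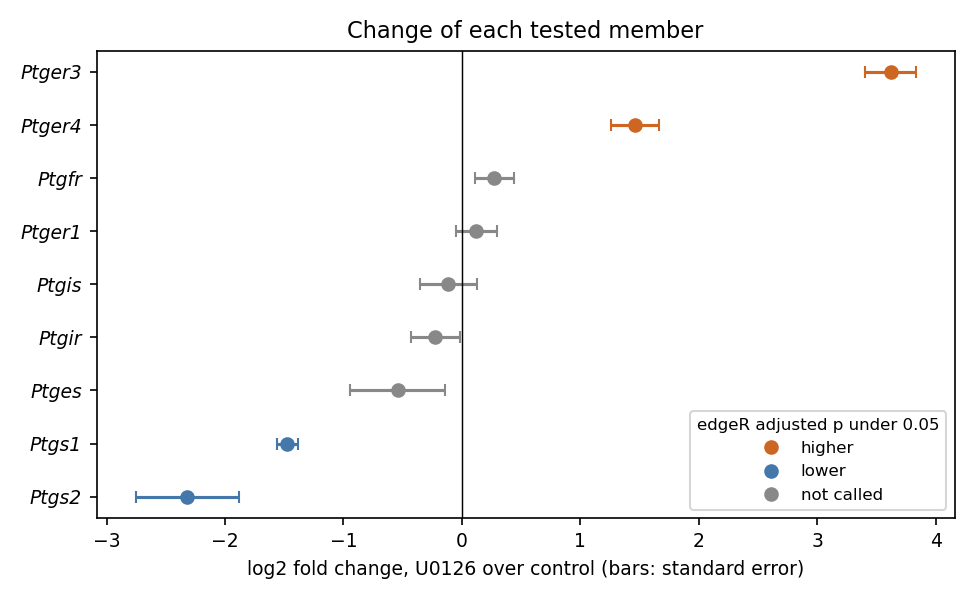
Log2 fold change of U0126 over control for the 9 tested members, with edgeR standard errors as bars; orange marks genes called higher, blue genes called lower and grey genes not called. Ptger3 (3.62) and Ptger4 (1.46) lie to the right of 0, and Ptgs1 (-1.47) and Ptgs2 (-2.32) to the left.

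By deposited TPM, the receptor pool was led by Ptgfr in the controls and, by mean, by Ptger3 with U0126. Summed over the 6 receptors the level was 67.5 and 69.7 TPM in the controls and 118 and 106 TPM with U0126. In the controls Ptgfr held the largest share (40.3% ± 2.49), followed by Ptgir (28.0% ± 2.62) and Ptger1 (21.7% ± 4.19), while Ptger4 held 5.38% ± 1.08 and Ptger3 4.66% ± 0.163. With U0126, Ptger3 held 37.5% and 31.1% in the 2 libraries, Ptgfr 31.7% and 25.3%, Ptgir 10.3% and 18.4%, Ptger1 11.9% and 16.2%, and Ptger4 8.55% and 9.05%. Shares are tied to each other: those of Ptgfr, Ptgir and Ptger1 were lower in both U0126 libraries than in both controls, although the CPM of none of these 3 genes passed the test. Within the 4 prostaglandin E receptors, Ptger3 went from 14.9% ± 2.91 to 60.0% ± 6.74 of the summed TPM, Ptger1 from 68.2% ± 2.22 to 24.6% ± 5.81, and Ptger4 was at 16.9% ± 0.693 and 15.4% ± 0.922. Grouped by textbook coupling, the Gi-coupled Ptger3 went from 4.66% to 34.3% of all receptor TPM, the Gs-coupled Ptger4 and Ptgir (with Ptger2 at 0) from 33.4% ± 1.54 to 23.2% ± 6.04, and the Gq-coupled Ptger1 and Ptgfr from 62.0% ± 1.70 to 42.5% ± 1.51. A lower share here is not a lower level: in CPM, Ptger4 rose, and Ptgir, Ptger1 and Ptgfr did not pass the test. The ratio of Ptger3 to Ptger4 was 1.03 and 0.738 in the controls and 4.39 and 3.44 with U0126. The exact two-sided permutation p of each of these differences between groups was 0.3333, the smallest possible here, so they are given as a description. With CPM in place of TPM, not divided by length, the U0126 minus control difference in share was 19.8 points for Ptger3 (29.7 by TPM), -3.30 for Ptger1 (-7.66) and -6.09 for Ptgfr (-11.8).

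**Figure D3:**
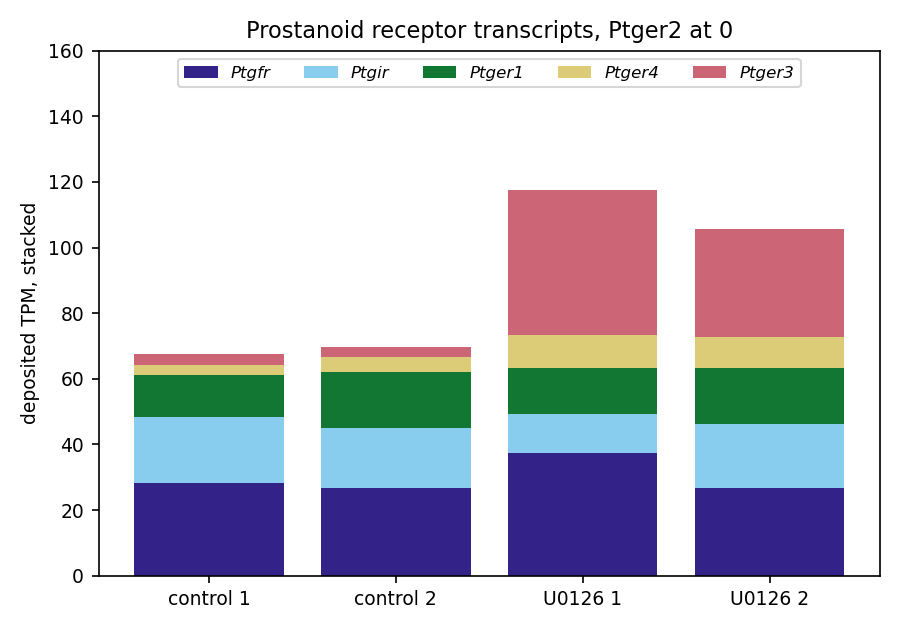
Deposited TPM of the prostanoid receptor genes, stacked for each library, with Ptger2 at 0 and therefore absent from the bars. The stacks reach 67.5 and 69.7 TPM in the controls and 118 and 106 TPM with U0126, and the Ptger3 block at the top grows from 3.22 and 3.16 TPM to 44.1 and 32.9 TPM.

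Ordered by mean TPM over the controls, the members ran Ptgs1 (62.6), Ptgs2 (61.1), Ptgfr (27.6), Ptgir (19.2), Ptger1 (14.9), Ptges (8.91), Ptgis (4.44), Ptger4 (3.70), Ptger3 (3.19) and Ptger2 (0). Neighbours overlapped in 2 places, between Ptgs1 and Ptgs2 and between Ptger4 and Ptger3. With U0126 the order was Ptger3 (38.5), Ptgfr (32.0), Ptgs1 (21.6), Ptgir (15.8), Ptger1 (15.6), Ptgs2 (11.8), Ptger4 (9.81), Ptges (5.91), Ptgis (3.93) and Ptger2 (0). Here Ptger3 overlapped Ptgfr, Ptgir overlapped Ptger1, Ptger1 overlapped Ptgs2, Ptgs2 overlapped Ptger4, and Ptges overlapped Ptgis. By mean TPM, Ptger3 was thus the lowest detected member in the controls and the highest with U0126, where it overlapped Ptgfr. Within each U0126 library Ptger3 was above Ptgfr by TPM (ratios 1.18 and 1.23). The length implied by the deposited values of Ptger3 was 1544 and 1474 bases in these libraries, and 1404 and 1690 bases in the controls. The order of Ptger3 and Ptgfr with U0126 thus rests on the length used and is not settled. In CPM, which is not per length, Ptgfr (65.5 and 46.4) was above Ptger3 (38.6 and 27.2).

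Genes on either side of the members in the eicosanoid pathway went both ways. Of 52 other genes listed, 50 were in the table and 29 were tested, of which 6 were called higher, 3 lower and 20 neither, with a median log2 fold change of 0.06. The shares over all tested genes were 8.41% higher and 11.5% lower, for this count and those of its parts below. Among 10 tested genes of arachidonate release, 2 rose and 1 fell (median -0.02). Pla2g4a, the cytosolic phospholipase A2 that supplies cyclooxygenases, was at 47.6 and 37.5 CPM in the controls and 27.8 and 20.2 CPM with U0126 (log2 fold change -0.82 ± 0.18 SE, edgeR adjusted p = 0.0201). Mgll, monoacylglycerol lipase, rose from 7.49 and 6.57 CPM to 35.7 and 18.5 CPM (log2 fold change 1.95 ± 0.30 SE), and the secreted phospholipase gene Pla2g12a rose by 0.53 ± 0.12. The calls of Pla2g4a (adjusted p = 0.165) and Pla2g12a (0.128) were lost without control replicate 1, and that of Pla2g12a also without control replicate 2 (0.258).

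None of the 6 tested genes among the other prostanoid synthases passed (median log2 fold change -0.05). The most abundant was Ptges3, a co-chaperone also described as a cytosolic prostaglandin E synthase, at 145 ± 4.94 and 130 ± 21.0 CPM (edgeR adjusted p = 0.420), which passed as lower without U0126 replicate 1 (adjusted p = 0.0242). The synthases of prostaglandin D (Ptgds, Hpgds) and thromboxane (Tbxas1), named after their values were seen, were too low to test.

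Of 9 tested genes of prostaglandin breakdown and transport, 3 rose and 1 fell (median log2 fold change 0.14). Slco2a1, the prostaglandin uptake transporter, was at 410 and 416 CPM in the controls and at 117 and 246 CPM with U0126 (log2 fold change -1.19 ± 0.30 SE, edgeR adjusted p = 0.0336). Both U0126 libraries were below both controls, and the second was the nearer. This call was lost under DESeq2 (adjusted p = 0.101) and without control replicate 1 (0.125) or 2 (0.136). Abcc4, an efflux pump that carries prostaglandins, rose from 8.35 and 10.4 CPM to 14.4 and 16.8 CPM (log2 fold change 0.73 ± 0.17 SE), and lost its call without control replicate 1 (adjusted p = 0.209) or 2 (0.0779). Hpgd, which encodes the enzyme that inactivates prostaglandins, had 3 and 0 counts in the control libraries, against 25 and 16 in the U0126 ones. The ratio was 15.3 (exact 95% interval 4.89 to 77.4, counting error only), on levels under 1 CPM. Its call (edgeR adjusted p = 0.0338) was lost without either control or U0126 replicate 1, with the replicate block and with no filter on low counts (0.0542 to 0.224). Akr1c14, an aldo-keto reductase gene, had 12 and 4 counts in the control libraries, against 77 and 34 in the U0126 ones, a ratio of 7.78 (4.59 to 14.1), and its call (adjusted p = 0.0239) was lost without either control or U0126 replicate 1 (0.0557 to 0.160).

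Of the other prostanoid receptor genes, the prostaglandin D receptors Ptgdr and Ptgdr2 were too low to test, and the thromboxane receptor Tbxa2r was at 11.3 ± 0.837 and 15.7 ± 2.69 CPM (edgeR adjusted p = 0.0853). These 3 were named after their values were seen. Ptgfrn, a membrane protein known as a negative regulator of the prostaglandin F receptor, rose from 453 and 489 CPM to 771 and 723 CPM (log2 fold change 0.67 ± 0.09 SE, edgeR adjusted p = 0.00349). It missed the threshold without control replicate 1 (adjusted p = 0.0579). On the leukotriene side 2 of 13 genes were tested. Lta4h, leukotriene A4 hydrolase, fell by 0.33 ± 0.09 SE on the log2 scale (adjusted p = 0.0472) and lost its call in 5 alternatives (0.0609 to 0.377).

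**Figure D4:**
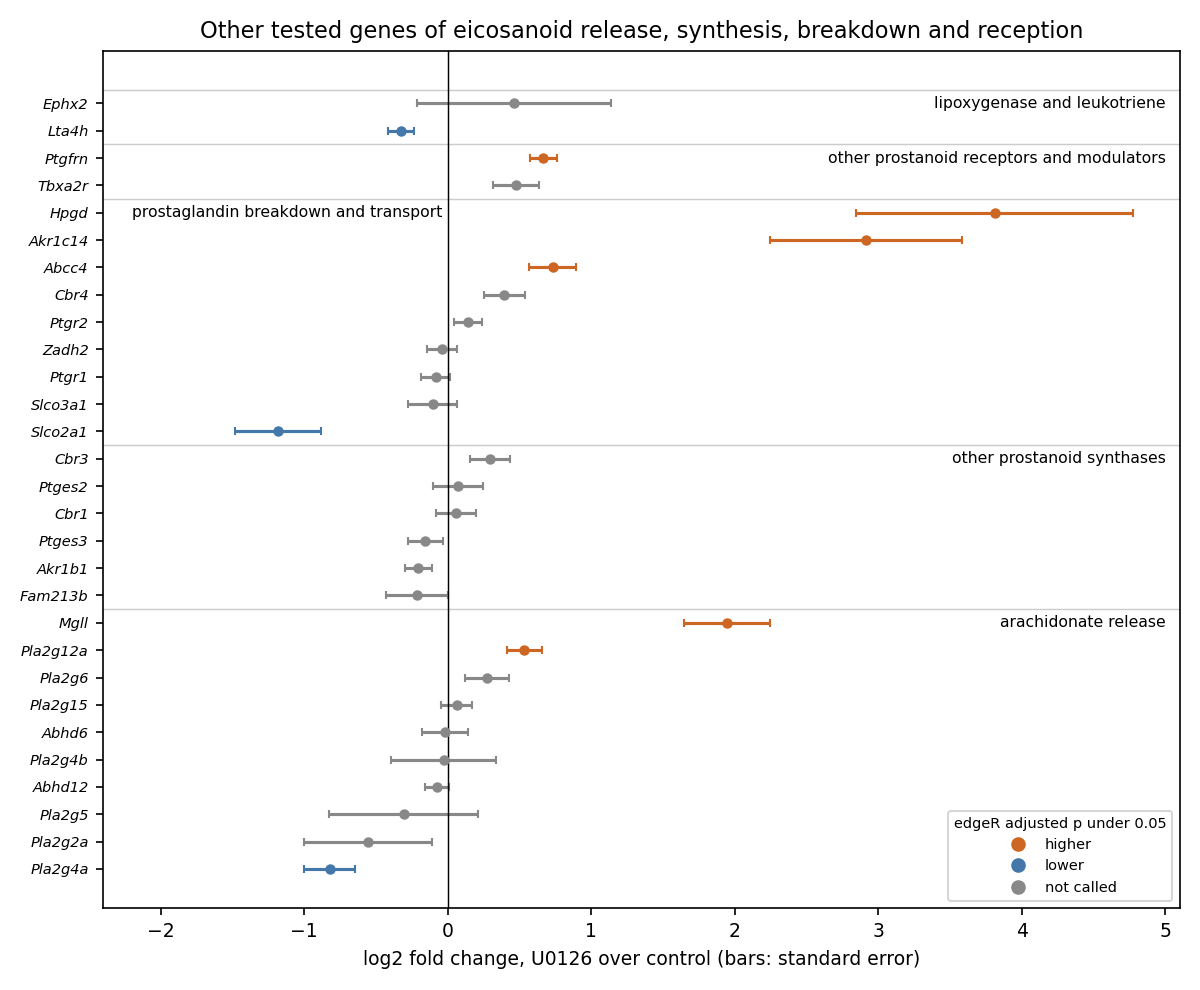
Log2 fold change of U0126 over control, with edgeR standard errors as bars, for the 29 other tested genes of the eicosanoid pathway, grouped by step; orange marks genes called higher, blue genes called lower and grey genes not called. Calls in both directions appear among the release and the breakdown and transport genes, and the 6 other synthases are all grey.

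Genes that feed into or read out prostaglandin signalling were examined as further lists. Their counts stand beside 8.41% called higher and 11.5% called lower over all tested genes. A list of 16 genes of the inflammatory signalling that induces Ptgs2 and Ptges held cytokines, their receptors and transcription factors, but also the antagonist gene Il1rn and the inhibitor gene Nfkbia. Of these, 5 fell, Il1rn included, and 0 rose (median log2 fold change -0.32). The others that fell were Il1a, Il1b, Il1rap and Egr1, which is also on the list of ERK output genes. Egr1 was named after its values were seen (log2 fold change -0.90 ± 0.25 SE, edgeR adjusted p = 0.043). Its U0126 libraries were at 58.84 and 106.5 CPM. Il1a and Il1b, the interleukin 1 cytokines that induce Ptgs2, were low in the controls and lower with U0126. Il1b was at 12.9 and 8.55 CPM in the controls and 0.474 and 2.43 CPM with U0126 (log2 fold change -2.89 ± 0.57 SE, edgeR adjusted p = 0.0135, and 0.0887 without control replicate 1). Il1a was at 7.87 and 5.15 CPM, and 0.264 and 0.829 CPM. As for Ptgs2 and Ptges, the second U0126 library was the higher one for both cytokines. Il1rn fell by 2.79 ± 0.17 SE. The receptor accessory gene Il1rap fell by 0.79 ± 0.15 SE, a call lost without either control (adjusted p = 0.102 and 0.107). Il6 and Nfkbia, which encodes an inhibitor of NF-kB, did not pass and were chosen after their values were seen. Il6 was at 103 and 61.3 CPM in the controls and 30.2 and 69.6 CPM with U0126. Nfkbia was at 93.5 and 80.3 CPM, and 51.1 and 127 CPM. Their difference between the U0126 libraries runs the same way as that of Ptgs2, and its part in the Ptgs2 result was not tested.

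Of 6 genes of glucocorticoid and annexin restraint, 1 rose and 2 fell (median log2 fold change -0.17). Nr3c1, the glucocorticoid receptor, rose by 0.54 ± 0.12 SE on the log2 scale. It has 2 rows in the table, so the value of the higher row is uncertain. The glucocorticoid target genes Fkbp5 (log2 fold change -1.26 ± 0.22 SE) and Tsc22d3 (-0.50 ± 0.13) fell. The calls of Nr3c1 (adjusted p = 0.196 and 0.0753) and Tsc22d3 (0.176 and 0.238) were lost without control replicate 1 or 2, and that of Fkbp5 without control replicate 2 (0.0968).

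Downstream of the receptors, 2 of 17 G protein and adenylyl cyclase genes rose and 0 fell (median log2 fold change -0.06). They were Adcy2, from 2.75 and 2.67 CPM to 10.5 and 9.45 CPM (1.88 ± 0.17 SE, edgeR adjusted p = 0.000673), and Adcy7 (0.70 ± 0.12), both genes of cAMP-making cyclases. The Adcy7 call was lost without control replicate 1 or 2 (adjusted p = 0.0897 and 0.0993). Of 16 tested genes known to respond to cAMP, 6 fell and 1 rose (median log2 fold change -0.47). Over all tested genes 11.5% were called lower and 8.41% higher. Whether these genes moved through cAMP or through the block of ERK itself was not tested, and this design cannot tell. The cAMP phosphodiesterase gene Pde3a fell by 1.52 ± 0.13 SE, the nuclear receptor genes Nr4a1 and Nr4a3 by 1.20 ± 0.11 and 1.90 ± 0.18, and the phosphatase gene Dusp1 by 0.74 ± 0.10. The riser was Rgs2, a regulator of G protein signalling, named after its values were seen (1.32 ± 0.32).

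Several marker lists of other cell types were at or near 0. The counts of called markers below stand beside 8.41% called higher and 11.5% called lower over all tested genes. Of 7 mast cell markers 0 were tested and 5 had no counts, with a summed level of 0.276 to 0.303 CPM in the controls and 0 with U0126. Of 7 endothelial markers found, 4 had no counts, Cdh5 among them, 1 was tested and not called (Tek), and the summed level was 0.166 to 0.791 CPM over the 4 libraries. Of 7 leukocyte and macrophage markers found, the defining genes Ptprc and Aif1 had no counts, 1 of 5 tested fell (Adgre1, at 0.474 ± 0.150 and 0.0264 ± 0.0373 CPM, a call lost in 6 alternatives), and the summed level was 15.4 to 15.8 CPM in the controls and 11.2 to 12.5 CPM with U0126, most of it Cd14. Among Schwann and neural markers, Sox10 had no counts and S100b rose from 9.94 ± 3.92 to 32.8 ± 11.6 CPM. Of 7 skeletal muscle markers found, all 4 tested fell, among them Myod1, from 2.00 ± 0.166 to 0.160 ± 0.109 CPM, while Pax7 had no counts. Myog, too low to test, went the other way. Its mean level was 0.440 ± 0.310 CPM for the U0126 libraries, above 0.0756 ± 0.107 CPM for the DMSO ones. Of 7 tested mural and smooth muscle markers, 4 fell and 2 rose, with Des counted as a faller on both this list and the skeletal muscle list. Acta2 went from 7374 ± 148 to 4204 ± 518 CPM, while Kcnj8 rose from 0.277 ± 0.00119 to 5.88 ± 2.46 CPM and Notch3 from 104 ± 12.6 to 197 ± 44.3 CPM. Of 7 tested tendon markers, 3 rose (Scx, Fmod and Dcn) and 0 fell. Marker calls were lost for Scx when either control was left out (edgeR adjusted p = 0.0715 and 0.0893), for Dcn (0.144) and S100b (0.0595) without control replicate 2, and for Notch3 without control replicate 1 (0.0868). Among the markers that fell, Des without control replicate 1 (0.0935), Acta1 without control replicate 2 (0.0856), and Cdh15 (0.119 and 0.0802) and Smtn (0.0591 and 0.0505) without control replicate 1 or 2 lost theirs. Some mural, muscle, neural and tendon markers were called between the same groups as the members, in both directions. Others were not, Col1a1 among them (log2 fold change -0.01). The part of these markers in the members' changes was not tested.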

How the data were processed

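Gene-level RNA sequencing values of 4 libraries were used, 2 from control (DMSO) and 2 from U0126 cells, with groups and replicate numbers taken from the sample labels. The submitters' processing notes name the build rn6; the aligner, counting tool, strand setting and annotation release were not given in the sources used here. Per the file headers, the deposited table gives a count, a TPM and an FPKM for every gene and library. The deposited counts are whole numbers, not normalized, and were the input of the tests. The deposited TPM, scaled by gene length and library, gave the receptor shares and ratios. The deposited FPKM served as an alternative to TPM and for the implied gene length. Columns were matched by the letter and number they share with the sample descriptions, and 0 per-sample columns were left over.

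Genes passing filterByExpr (minimum count 10, minimum total 15) were scaled by TMM and tested with edgeR 4.0.16 (glmQLFit, glmQLFTest, two-sided) in R 4.3.3, with Benjamini-Hochberg adjustment over 14023 genes. Standard errors were obtained as the size of the log2 fold change over the root of its F statistic. Tested on simulated counts with known changes, the fit recovered most changed genes, and unchanged genes made up more of its calls than the threshold states. Alternatives were RLE factors, library totals, DESeq2 1.42.0, limma-voom (limma 3.58.1), other filters, a replicate block and leaving out each library.

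All members were named. Of other lists, the 4 called genes of lowest adjusted p were named (fewer where fewer were called). Where none was called, the tested gene of highest level was named. Others are said to have been chosen after their values were seen. So were the markers named without a call (Col1a1, Tnmd, Cdh5, Ptprc, Aif1, Cd14, Sox10, Pax7 and Myog). The members and lists were chosen with earlier results of these data known. A marker gene of the neural list is not reported here. Intervals and floors cover counting error only. Where a symbol had 2 rows, the row with more counts was used.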

Additional observations from a re-analysis of the deposited data

How the results depend on the processing

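The 2 calls of higher members held in all 11 alternatives. The 2 calls of lower members numbered 1 to 4 when a library was left out: 1 without control replicate 1 and 4 without U0126 replicate 2, where Ptges and Ptgir joined. Signs of members that were not called turned when a library was left out: log2 fold changes ran from -0.3939 to 0.1123 for Ptgis, from -0.0598 to 0.3314 for Ptger1 and from -0.5984 to 0.0725 for Ptgir. Over the whole table, leaving out a library gave 295 to 2138 higher and 604 to 2506 lower genes, with the fewest without a control and the most without U0126 replicate 2. For the other pathway genes it gave 1 to 8 higher and 0 to 4 lower, and DESeq2 gave 1 lower. The replicate block (log2 fold change -2.50 for Ptgs2 and 3.60 for Ptger3) changed no member's call; same-numbered libraries deviated from their group means with a correlation of -0.031 across genes, so the numbers are not shown to pair them. With the block 958 and 1413 genes were higher and lower. With CPM in place of TPM, not divided by length, the U0126 minus control difference in share was 19.8 points for Ptger3, -3.30 for Ptger1 and -6.09 for Ptgfr, against 29.7, -7.66 and -11.8. With 2 libraries a group no exact test over libraries can pass, and depth limits Ptger2, Hpgd and the mast cell and endothelial markers, which lie near the counting floor. No scaling moved the median log2 fold change of all genes by over 0.1.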

Other observations

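The deposited values of Ptger3 carry a further feature. The gene length implied by count, FPKM and library total was 1404 and 1690 bases for Ptger3 in the controls and 1544 and 1474 bases in the U0126 libraries, a highest over lowest ratio of 1.20. For the other 8 detected members this ratio was between 1.002 and 1.006. Of 11525 genes with at least 50 counts in each library, 4.15% had a ratio of at least 1.1 and 1.83% one as high as that of Ptger3. The controls, with 99 and 124 counts, hold both the shortest and the longest implied length, so the groups overlap. TPM and FPKM of Ptger3 therefore carry a length that differs between libraries. Its counts and CPM are not divided by a length. The counting tool was not given, so whether the counts are free of this difference was not checked.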
